A study of Mus musculus with 8 samples.

Results

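Markers of the tissue that lies below the epidermis were examined in epidermal RNA of newborn mice. The set held 35 of the 22180 genes measured: 10 genes of skeletal muscle, 8 of adipocytes, 9 of fibroblasts and 8 of endothelium. They were taken by gene symbol from the annotation of the array, and all 35 had a probe set that names a single gene. Where a gene had several such probe sets, that with the highest mean over the 8 arrays was used. The study compared 4 arrays of K320E-TwinkleEpi mice with 4 arrays of controls, all C57BL/6J at postnatal day 0. In the K320E-TwinkleEpi mice (K320E below), a mutant of the mitochondrial helicase Twinkle was expressed through the promoter of K14, a keratin of basal keratinocytes. The genotype label of the controls was R26-K320E-TwinkleloxP/+, so they carried an allele of the same mutant, and the labels do not state whether it was expressed. Neither do they state that arrays came from separate animals. Sex-linked transcripts, given below, differed between arrays of the same genotype, so those arrays did not all hold the same RNA. The p-values reflect the variation among these 8 arrays alone, part of which could be technical. Values are log2 intensities as deposited.

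The epidermis itself holds no muscle, fat, fibroblasts or vessels. In mouse skin it rests on the dermis, where fibroblasts deposit collagen and where blood and lymphatic vessels run. Below the dermis lie a layer of fat cells and the panniculus carnosus, a sheet of striated muscle that moves the skin. The genes described here encode parts of these tissues: the contractile filaments of fast muscle fibres, the lipid handling proteins of adipocytes, the fibrillar collagens and proteoglycans of the dermal matrix, and the receptors and adhesion molecules of endothelium. In bulk RNA, fewer cells of a type and less RNA per cell cannot be told apart.

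Promoters of muscle genes commonly hold binding motifs for a few transcription factors, and 4 of them are shown because the levels of these genes differed between arrays. The stretches end at the base before the transcription start and are taken from RefSeq on GRCm38.p6, where 22 of the 35 members had a promoter entry. Capitals mark the CArG box (bound by serum response factor) in Acta1 and the E-box, CANNTG (bound by the MyoD family), in the others.
Acta1, chr8:123894776-123894925, minus strand: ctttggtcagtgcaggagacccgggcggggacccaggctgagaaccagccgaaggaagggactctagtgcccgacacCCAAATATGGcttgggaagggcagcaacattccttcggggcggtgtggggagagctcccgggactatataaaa
Mylpf, chr7:127211458-127211607, plus strand: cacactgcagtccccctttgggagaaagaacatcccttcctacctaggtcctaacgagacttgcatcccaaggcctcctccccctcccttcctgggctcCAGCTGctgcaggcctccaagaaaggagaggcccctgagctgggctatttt
Myh8, chr11:67276874-67277123, plus strand: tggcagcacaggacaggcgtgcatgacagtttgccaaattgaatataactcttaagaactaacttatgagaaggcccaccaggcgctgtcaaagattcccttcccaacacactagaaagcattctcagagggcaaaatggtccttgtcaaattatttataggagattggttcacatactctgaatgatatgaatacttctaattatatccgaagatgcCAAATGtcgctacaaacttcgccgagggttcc
Tnnc2, chr2:164779735-164779984, minus strand: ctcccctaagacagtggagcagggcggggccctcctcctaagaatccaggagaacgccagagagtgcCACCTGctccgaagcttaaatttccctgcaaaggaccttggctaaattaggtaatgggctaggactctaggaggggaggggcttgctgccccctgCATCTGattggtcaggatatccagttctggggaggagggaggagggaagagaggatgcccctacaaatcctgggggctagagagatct

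Motifs were searched on both strands in the 250 bases before the start of every gene with an entry, each motif counted on its own even where matches overlap. An E-box was present in 8 of the 8 muscle promoters, against 69.3% of all 27025 genes, and also in 5 of 5 adipocyte, 4 of 4 endothelial and 2 of 5 fibroblast promoters. The TATAAA motif was found in 4 of 8 muscle and 2 of 5 fibroblast promoters, against 14.3% of all genes, and the CArG box in 1 of 8 muscle promoters, that of Acta1, against 1.62%. No muscle promoter held a MEF2 site in this window (0.592% of all genes). The ETS core, CCGGAA or CAGGAA, was present in 4 of the 4 endothelial promoters with an entry (Kdr, Tek, Tie1 and Emcn), in 2 of 8 muscle, 1 of 5 fibroblast and 0 of 5 adipocyte promoters, and in 38.2% of all genes. The PPAR response element, searched as 2 copies of AGGTCA with any 1 base between them, was in 0 of 5 adipocyte promoters and in 0.0407% of all genes. These matches describe the sequence only.

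The array medians lay between 6.06 and 6.11. Krt14, Krt1 and Krt10, keratins of the basal and the upper epidermis, averaged 12.58, 12.82 and 12.91 in K320E and 12.30, 12.75 and 12.91 in controls, so the labelled tissue was represented in both groups. Krt5 had no probe set naming a single gene and was not measured here. Twnk, which encodes Twinkle, was 8.91 to 9.28 in K320E and 6.55 to 6.95 in controls (log2 fold change 2.31, SE 0.11; limma adjusted p = 0.00011). The arrays differed in sex-linked transcripts, which the labels do not describe. The mean of 3 Y-linked genes was 8.64 in K320E replicate 3 and 9.05 in control replicate 2, against 4.75 to 4.82 in the other 6 arrays. Xist was 6.84 in K320E replicate 3, 9.27 in control replicate 2 and 6.17 in control replicate 3, while the other 5 arrays lay between 12.07 and 12.27. Control replicate 2 thus had Y-linked signal beside an intermediate Xist level, and control replicate 3 was low in both. The cause was not tested. Because of these differences, the median fold change of each marker group is also given without K320E replicate 3 and control replicates 2 and 3. As a rough measure of background, 1105 olfactory receptor genes, which skin does not normally transcribe, had a median level of 4.73 and a 95th percentile of 6.06. Intensities of different probe sets are not on a single scale, so this value is only a guide.

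No marker of muscle, fat, fibroblasts or endothelium passed the test between the genotypes. In limma's fit over all genes, 0 of the 35 members had an adjusted p under 0.05, where 0.879% of all genes were called, and the lowest adjusted p among members was 0.192, for Postn. At an unadjusted p under 0.05 there were 5 members, against 14.8% of all genes. Of these, 4 (Mylpf, Tnnc2, Fabp4 and Lyve1) had higher means in K320E, where 8.77% of all genes did, and Postn had a lower mean, where 6.06% did. All 10 muscle and all 8 adipocyte genes had fold changes above 0, as did 5 of 9 fibroblast and 5 of 8 endothelial genes, against 49.8% of all genes. The median log2 fold change was 0.42 for muscle, 0.47 for adipocyte, 0.09 for fibroblast and 0.05 for endothelial genes, against -0.00052 over all genes. Over members with a mean above the olfactory receptor level it was 0.80 for 7 muscle and 0.77 for 5 adipocyte genes. It was 0.19 for 6 fibroblast and 0.19 for 3 endothelial genes, against 0.02 over all genes above that level. The mean used here was that over both genotypes, so a gene could pass through 1 of them. Pdgfra passed with a mean of 6.27 in K320E and of 6.03, under that level, in controls. The intervals were wide: the 95% confidence interval of Car3 ran from -0.47 to 3.36 and that of Acta1 from -0.09 to 2.19.

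**Figure D1:**
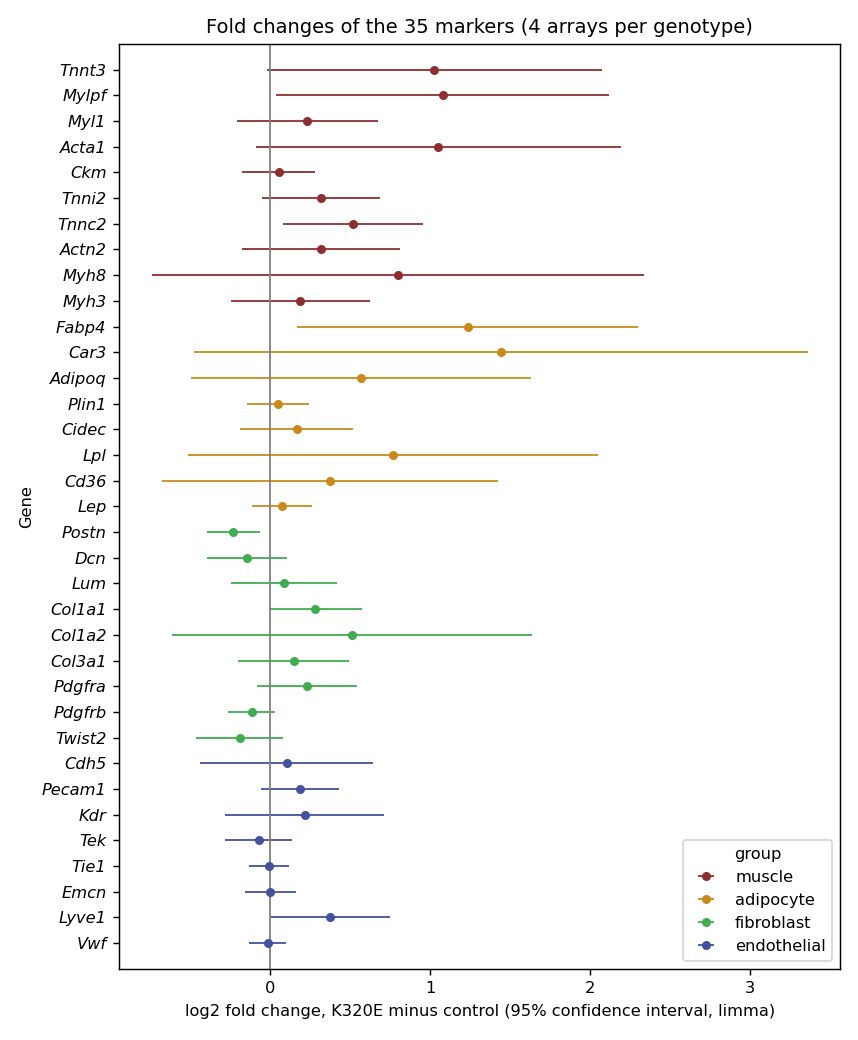
Log2 fold change (K320E minus control, horizontal axis) of each of the 35 markers, with its 95% confidence interval from limma and 4 arrays per genotype; colours give the marker group. The muscle and adipocyte points all lie above 0, with intervals as wide as -0.47 to 3.36 for Car3. Tie1, Emcn and Vwf sit close to 0 with narrow intervals, and their mean levels were under the olfactory receptor level.

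The muscle and adipocyte members varied more between arrays than the median gene. Over the 8 arrays the range from lowest to highest array had a median of 2.41 log2 units for adipocyte genes, 1.24 for muscle genes, 0.59 for fibroblast genes and 0.50 for endothelial genes, against 0.39 for all genes. Among members with a mean above the olfactory receptor level, this median was 3.15 for 5 adipocyte and 2.72 for 7 muscle genes. It was 0.71 for 6 fibroblast and 1.07 for 3 endothelial genes, against 0.47 for all genes above that level. Over the further genes of these tissues, described below, the median range was smaller for muscle (0.49, 45 genes) and for adipocytes (0.94, 18 genes). For further fibroblast genes it was 0.59 (31 genes) and for further endothelial genes 0.35 (24 genes). The highest array was K320E replicate 3 for 24 of the 35 members, where this held for 12.0% of all genes. By group these were 9 of 10 muscle, 7 of 8 adipocyte, 4 of 9 fibroblast and 4 of 8 endothelial genes. The lowest array was control replicate 1 or 4 for 21 of 35 members, against 28.9% of all genes, and this included 8 of the 10 muscle genes.

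**Figure D2:**
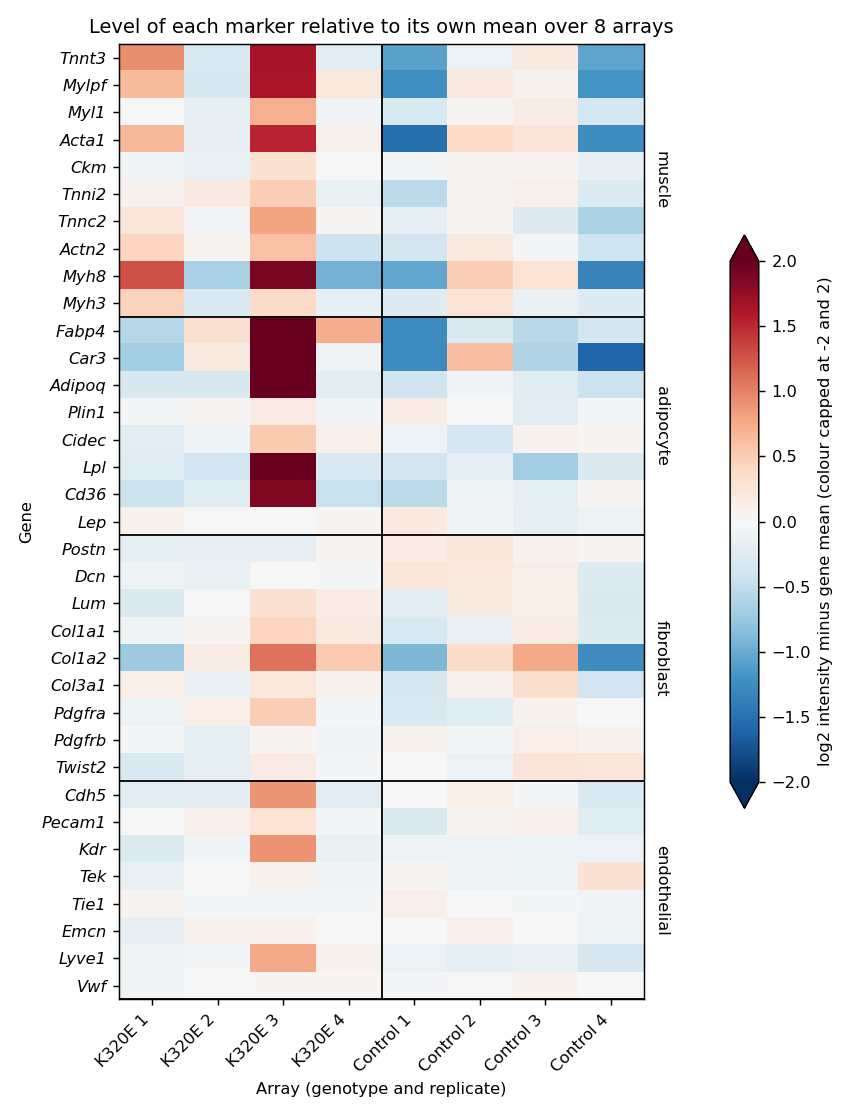
Level of each marker in each array as log2 intensity minus the gene's own mean over the 8 arrays, K320E arrays on the left and controls on the right; the colour scale is capped at -2 and 2. K320E replicate 3 is the highest array for 24 of 35 genes, and control replicates 1 and 4 are pale to deep blue for most muscle genes.

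Among genes of the thin filament of muscle, the skeletal actin gene Acta1 measured 8.36, 7.53, 9.22 and 7.79 in K320E replicates 1 to 4, against 6.19, 8.09, 7.95 and 6.44 in control replicates 1 to 4. The controls thus lay in pairs, with replicates 2 and 3 inside the range of the K320E arrays and replicates 1 and 4 below all of them. Its log2 fold change was 1.05 (SE 0.50, limma adjusted p = 0.379). Tnnt3, the fast-fibre troponin T that ties the troponin complex to tropomyosin, had 9.03, 7.78, 9.74 and 7.87 in K320E, against 7.02, 7.97, 8.27 and 7.04 in controls, with a fold change of 1.03 (SE 0.46, limma adjusted p = 0.348). It showed the same low pair of controls and the same high K320E replicates 1 and 3. Tnnc2, the calcium-binding troponin C of fast fibres, had 8.10, 7.83, 8.65 and 7.88 in K320E, against 7.67, 7.89, 7.59 and 7.23 in controls. The groups overlapped only through control replicate 2, and the fold change was 0.52 (SE 0.19, limma adjusted p = 0.251). Tnni2, the inhibitory troponin I subunit, had a smaller fold change of 0.32 (SE 0.16, limma adjusted p = 0.423).

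The myosin genes varied in the same arrays. Mylpf, the regulatory light chain of fast myosin, measured 8.54, 7.57, 9.53 and 8.10 in K320E, against 6.67, 8.09, 7.97 and 6.70 in controls (log2 fold change 1.08, SE 0.46; limma adjusted p = 0.319). Myh8, the perinatal myosin heavy chain, had 8.85, 6.90, 9.45 and 6.61 in K320E, against 6.52, 8.05, 7.83 and 6.22 in controls. For Myh8, K320E replicates 2 and 4 lay beside the lowest controls, which left a fold change of 0.80 with an SE of 0.68 (limma adjusted p = 0.663). A second Myh8 probe set gave 0.71 (SE 0.52). Myh3, the embryonic heavy chain, ranged over 0.77 log2 units, had its highest value in K320E replicate 1 and a mean under the olfactory receptor level of 6.06. The essential light chain gene Myl1 had a fold change of 0.23 (SE 0.20).

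The remaining muscle members, Actn2 and Ckm, were near background. Actn2, alpha-actinin of the Z-disc, measured 6.37, 5.98, 6.53 and 5.52 in K320E, against 5.57, 6.12, 5.90 and 5.53 in controls. Ckm, the muscle creatine kinase that buffers ATP, had 5.99, 5.89, 6.36 and 6.06 in K320E, against 6.00, 6.10, 6.10 and 5.88 in controls. In both genes the highest array was again K320E replicate 3, although the groups overlapped. The probe sets of Ckm differed in sign, at 0.05 and -0.08. In all, 7 of the 10 muscle genes had a mean above the olfactory receptor level.

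Without K320E replicate 3 the muscle median was 0.25, and Acta1 had a fold change of 0.72, Mylpf of 0.71, Tnnt3 of 0.65 and Myh8 of 0.30. With that array and control replicates 2 and 3 all left out, which leaves 3 K320E arrays and 2 controls alike in their sex-linked transcripts, the muscle median was 0.46 and the fold change of Acta1 was 1.57 (limma adjusted p = 0.102). The 2 controls that remain in that fit are replicates 1 and 4. Without control replicates 2 and 3 alone, the muscle median was 0.61 and the fold change of Acta1 was 1.91 (limma adjusted p = 0.112). No muscle member passed in any of these fits.

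Several adipocyte genes were high in 1 array. Adipoq, which encodes the fat cell hormone adiponectin, measured 5.42, 5.42, 7.75 and 5.51 in K320E replicates 1 to 4, against 5.34, 5.68, 5.50 and 5.31 in controls. Its level was above the olfactory receptor level in K320E replicate 3 alone. Lpl, the lipoprotein lipase that releases fatty acids from circulating lipoproteins, had 7.08, 6.93, 9.77 and 7.01 in K320E, against 6.95, 7.12, 6.62 and 7.02 in controls. Cd36, a fatty acid transporter also present on endothelium and macrophages, had 7.05, 7.24, 9.34 and 7.04 in K320E, against 6.96, 7.39, 7.30 and 7.51 in controls. In all of these genes the remaining 3 K320E arrays lay within or close to the range of the controls. The fold changes were 0.57 for Adipoq (SE 0.47), 0.77 for Lpl (SE 0.57) and 0.37 for Cd36 (SE 0.46). Without K320E replicate 3 they were -0.0048, 0.08 and -0.18.

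Fabp4 and Car3 had a different pattern. Fabp4, a fatty acid-binding protein of adipocytes that capillary endothelium and macrophages also make, measured 9.65, 10.52, 12.23 and 10.96 in K320E, against 8.96, 9.93, 9.67 and 9.86 in controls. Here 3 of the 4 K320E arrays lay above every control, with K320E replicate 1 among the controls, and the fold change was 1.24 (SE 0.47, limma adjusted p = 0.266). It was 0.77 without K320E replicate 3 (limma adjusted p = 0.385). Car3, a carbonic anhydrase abundant in fat and in slow muscle fibres, had 6.85, 7.71, 10.99 and 7.46 in K320E, against 6.25, 8.13, 6.94 and 5.93 in controls. Its 2 probe sets gave fold changes of 1.44 (SE 0.85) and 1.35 (SE 0.86), and the range of 5.06 over the 8 arrays was the widest of the 35 members. The fold change was 0.53 without K320E replicate 3.

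The lipid droplet genes and Lep ranged less between arrays, and the means of Cidec and Lep, like that of Adipoq, were under the olfactory receptor level, which 5 of the 8 adipocyte genes exceeded. Cidec, which enlarges lipid droplets, measured 5.68, 5.81, 6.42 and 6.00 in K320E, against 5.78, 5.56, 5.97 and 5.93 in controls. Plin1, which coats the droplet and restrains lipolysis, ranged over 0.38 and Lep, which encodes the hormone leptin, over 0.39 log2 units, about the median range of all genes. Lep is the adipocyte member whose highest array was not K320E replicate 3. In the fit without that array the adipocyte median was 0.05, and without control replicates 2 and 3 as well it was 0.0097.

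Some fibroblast genes hardly varied between arrays, while others did. Postn, a matrix protein made by fibroblasts during growth and repair, measured 11.28, 11.28, 11.29 and 11.50 in K320E, against 11.60, 11.68, 11.51 and 11.47 in controls. Only K320E replicate 4 overlapped the controls, and the log2 fold change was -0.23 (SE 0.07, 95% confidence interval -0.40 to -0.07, limma adjusted p = 0.192). Dcn, the collagen-binding proteoglycan decorin, had 10.90, 10.86, 11.00 and 10.98 in K320E, against 11.26, 11.20, 11.14 and 10.73 in controls. The K320E arrays lay inside the range of the controls, with a fold change of -0.14 (SE 0.11). Neither gene had its highest array in K320E replicate 3.

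Collagen genes ordered the arrays in other ways. Col1a2, the second chain of collagen I, measured 8.27, 9.16, 10.09 and 9.52 in K320E, against 8.11, 9.37, 9.76 and 7.76 in controls. Its low arrays were control replicates 1 and 4 and K320E replicate 1, the groups overlapped over most of their range, and the fold change was 0.51 (SE 0.50). A second Col1a2 probe set gave a fold change of 0.13 (SE 0.13). Col1a1, the other chain of collagen I, had 6.77, 6.86, 7.25 and 7.00 in K320E, against 6.53, 6.68, 6.99 and 6.55 in controls (log2 fold change 0.28, SE 0.13; limma adjusted p = 0.352). Its order differed, with control replicate 3 the 1 control above K320E replicates 1 and 2. Col3a1, of collagen III, had its highest value in control replicate 3 (7.21) and its lowest in control replicate 4 (6.52), and a fold change of 0.15 (SE 0.15).

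The growth factor receptor genes and the remaining fibroblast members ranged over at most 0.79 log2 units. Pdgfra, a receptor that marks dermal fibroblasts, measured 6.05, 6.27, 6.64 and 6.11 in K320E, against 5.85, 5.91, 6.22 and 6.16 in controls, a fold change of 0.23 (SE 0.14). Pdgfrb, which marks fibroblasts and pericytes, had a fold change of -0.11 (SE 0.07), and Twist2, a transcription factor of dermal mesenchyme, of -0.19 (SE 0.12). Lum, the proteoglycan lumican, had 0.09 (SE 0.15). The means of Lum, Pdgfrb and Twist2 were under the olfactory receptor level, which 6 of the 9 fibroblast genes exceeded. Without K320E replicate 3 and control replicates 2 and 3, the fibroblast median was 0.14 and the fold change of Col1a2 was 1.05 (limma adjusted p = 0.356). Without control replicates 2 and 3 alone, the median was 0.26 and the fold change of Col1a2 was 1.33 (limma adjusted p = 0.253).

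In endothelium, 5 of the 8 members (Kdr, Tek, Tie1, Emcn and Vwf) had means under that level. Cdh5, the cadherin of endothelial junctions, measured 6.30, 6.29, 7.40 and 6.29 in K320E, against 6.53, 6.64, 6.49 and 6.21 in controls. Kdr, a receptor for VEGF, had 5.32, 5.54, 6.48 and 5.45 in K320E, against 5.51, 5.48, 5.47 and 5.47 in controls. Both were high in K320E replicate 3 and no other array, and without it their fold changes were -0.17 and -0.05, against 0.10 and 0.22 with it. Lyve1, a hyaluronan receptor of lymphatic vessels and some macrophages, had 6.74, 6.79, 7.57 and 6.89 in K320E, against 6.70, 6.61, 6.68 and 6.50 in controls.

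Lyve1 was the 1 member whose groups did not overlap, a state that 5.50% of all genes showed in this direction and 9.25% in either. The gap between the lowest K320E array and the highest control was small beside the 0.38 fold change (SE 0.17, limma adjusted p = 0.335). Pecam1, an adhesion molecule of endothelium and platelets, had 6.30, 6.39, 6.56 and 6.27 in K320E, against 6.00, 6.35, 6.40 and 6.04 in controls, again with control replicates 1 and 4 lowest. The receptor genes Tek and Tie1, the sialomucin gene Emcn and the clotting factor gene Vwf had fold changes between -0.07 and 0.0016, and ranges over the arrays from 0.14 to 0.44. The highest array of each of these 4 genes was a control. Without K320E replicate 3 and control replicates 2 and 3, the endothelial median was -0.0095, against 0.05 with all arrays, and the fold change of Tek was -0.23 (limma adjusted p = 0.461).

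The mean level of each group ordered the arrays differently. For muscle it was 7.62, 6.96, 8.15 and 6.99 in K320E, against 6.50, 7.31, 7.22 and 6.46 in controls. For adipocyte genes it was 6.67, 6.90, 8.53 and 6.94 in K320E, against 6.52, 6.92, 6.64 and 6.62 in controls. K320E replicate 1 was thus the second highest array for muscle but the fifth for adipocyte genes. For fibroblast genes the means were 7.39, 7.51, 7.85 and 7.66 in K320E, against 7.40, 7.63, 7.79 and 7.34 in controls. The endothelial means were 5.71, 5.80, 6.19 and 5.78 in K320E, against 5.78, 5.81, 5.80 and 5.72 in controls. K320E replicate 3 was the highest array for all 4 groups, and no group separated the genotypes.

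**Figure D3:**
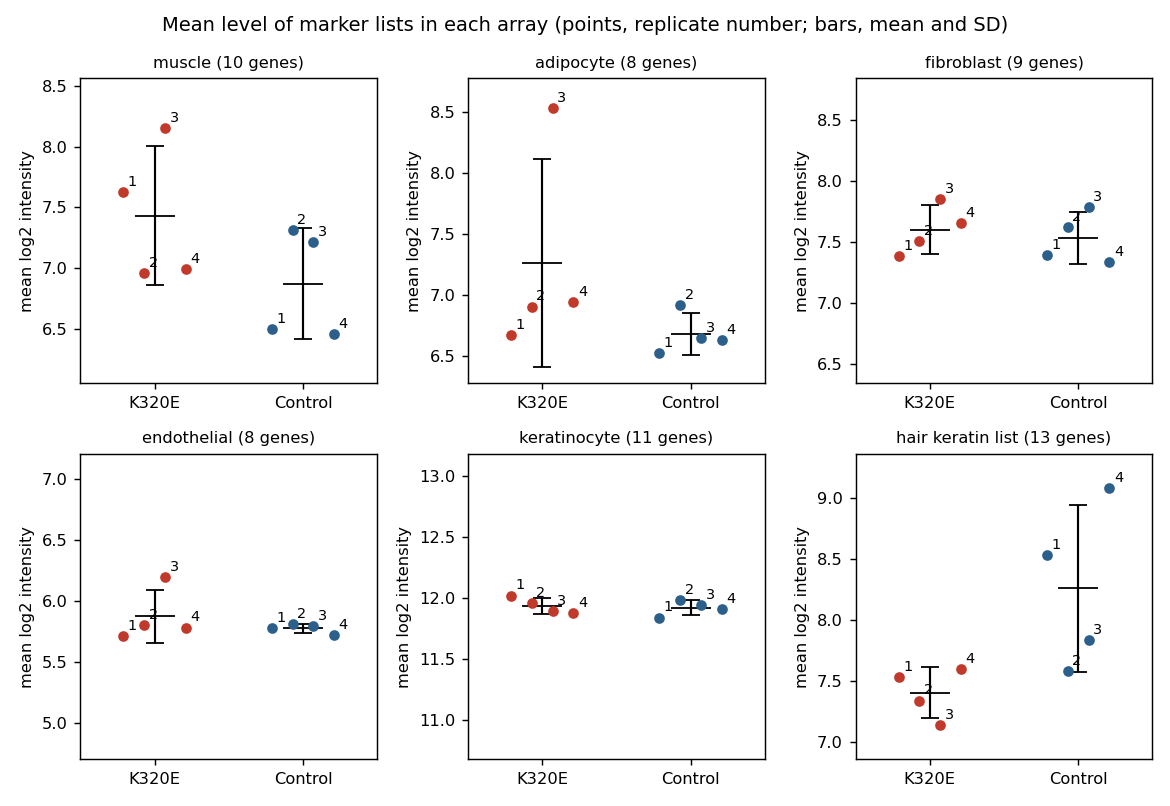
Mean log2 intensity of 4 marker groups and of the keratinocyte and hair keratin lists in each array, K320E on the left and control on the right; numbers are replicates, bars the mean and SD of 4 arrays and all panels have the same span. K320E replicate 3 stands at 8.53 for adipocyte genes, and control replicates 1 and 4 are the lowest arrays for muscle (6.50 and 6.46) and the highest for hair keratins (8.54 and 9.09).

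Within an array, the muscle mean minus the fibroblast mean averaged -0.17 ± 0.51 over the K320E arrays and -0.66 ± 0.28 over the control arrays (SD, n = 4 each). It was 0.24 and 0.30 in K320E replicates 1 and 3, and between -0.89 and -0.31 in the other 6 arrays. Probe sets are not on a single scale, so these values can be compared between arrays but their sign cannot be read. The adipocyte mean minus the fibroblast mean was 0.67 in K320E replicate 3 and between -1.15 and -0.61 in the other 7 arrays. The endothelial mean minus the fibroblast mean averaged -1.73 ± 0.10 over the K320E arrays and -1.76 ± 0.18 over the control arrays, and so differed between the genotypes by less than the spread between arrays. The muscle mean minus the adipocyte mean was highest in K320E replicate 1 (0.96) and lowest in K320E replicate 3 (-0.37). These differences thus varied from array to array within a genotype.

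**Figure D4:**
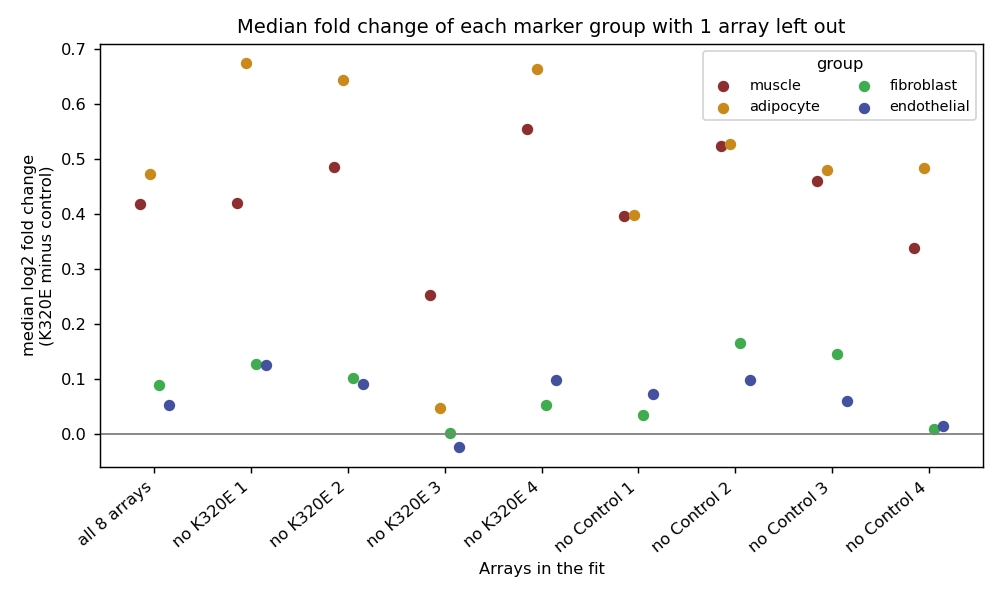
Median log2 fold change (K320E minus control) of the muscle, adipocyte, fibroblast and endothelial genes in the fit of all 8 arrays and with each array left out in turn. Leaving out K320E replicate 3 brings the adipocyte median to 0.05 and the muscle median to 0.25, and over the 8 reduced fits the muscle median stays between 0.25 and 0.55.

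Among further genes of the same tissues, 2 were called, where 0.879% of all genes were. Of 45 further muscle genes, 1 rose and 0 fell in limma's fit, where 0.685% of all genes rose. Fold changes were above 0 for 32 of them, against 49.8% of all genes, and the median was 0.09. The gene that rose was Tpm2, a tropomyosin of slow muscle that smooth muscle and other cells also make, with 9.17, 8.94, 9.42 and 9.23 in K320E, against 7.83, 8.45, 8.52 and 7.67 in controls (log2 fold change 1.07, SE 0.20; limma adjusted p = 0.0475). All 4 K320E arrays lay above all controls, a state that 5.50% of all genes showed. Among the controls, replicates 1 and 4 were again the lowest. The regulators Myod1 and Myog of muscle formation had fold changes of -0.06 and 0.16, and the adult fast heavy chain Myh4 one of -0.08. Myod1 and Myog had means of 6.38 and 6.16, little above the olfactory receptor level of 6.06, and that of Myh4, 5.01, was under it. Actc1, the cardiac actin that fetal skeletal muscle expresses, measured 8.07, 7.09, 9.20 and 7.26 in K320E, against 6.58, 7.81, 7.63 and 5.85 in controls (limma adjusted p = 0.479). It was chosen after its values were seen, as were Myod1, Myog and Myh4.

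Of 31 further fibroblast genes, 1 rose and 0 fell, where 0.685% of all genes rose, and the median was 0.09. This was Thy1, a surface glycoprotein of dermal fibroblasts that mouse T cells also carry, with 7.78, 7.93, 8.11 and 7.78 in K320E, against 7.05, 7.25, 7.56 and 7.00 in controls (log2 fold change 0.69, SE 0.13; limma adjusted p = 0.0495). The groups of Thy1 did not overlap either, a state that 5.50% of all genes showed in this direction. Tpm2 and Thy1 each kept their call in 1 of the 8 fits that leave out an array, the fit without control replicate 3, and lost it without any other array (limma adjusted p up to 0.146). Over these 8 fits the log2 fold change of Tpm2 was 0.92 to 1.21 and that of Thy1 was 0.62 to 0.80, close to the values with all arrays.

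None of the 18 further adipocyte genes (median 0.07) or 24 further endothelial genes (median 0.08) passed. At an unadjusted p under 0.05 there were 4 and 1 of them, all higher in K320E, where 8.77% of all genes were. The further adipocyte genes had fold changes from -0.64 to 0.44, with 13 above 0 and 5 below, where 49.8% of all genes were above 0. Dgat2, which makes triglyceride, averaged 10.55 ± 0.31 over the K320E arrays and 10.28 ± 0.21 over the control arrays (SD, n = 4 each). Cebpa, a factor of adipocyte and keratinocyte differentiation, averaged 8.81 ± 0.26 over the K320E arrays and 8.47 ± 0.19 over the control arrays (SD, n = 4 each). Among the endothelial genes Egfl7 had a fold change of -0.03 and Mmrn2 of 0.24. Of these 24 genes, 19 had means under the olfactory receptor level.

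Markers of other cells of the deeper skin had no called gene in limma's fit. At an unadjusted p under 0.05, counted below for each list, 14.8% of all genes passed. The list of pericytes and smooth muscle (12 genes) had a median of 0.09, with Mcam at 0.11 and Acta2 at 0.35, and 1 gene at an unadjusted p under 0.05. Of Schwann cell genes 6 were measured, with a median of 0.12, Mbp at 0.21 and Mal at 0.15, and 1 gene at an unadjusted p under 0.05. The dermal papilla list (10 genes) had a median of 0.05, with Bmp4 at -0.16 and Wif1 at 0.10, and 2 genes at an unadjusted p under 0.05. Of erythroid genes only Slc4a1 and Hbb-y were measured, at 0.01 and 0.07, and 0 had an unadjusted p under 0.05. K320E replicate 3 had the highest list mean for pericytes and smooth muscle (6.75), for Schwann cells (6.01) and for the dermal papilla (6.08).

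The mean of the keratinocyte list (11 genes) ranged only from 11.88 to 12.02 in K320E and from 11.84 to 11.98 in controls. The list had a median fold change of 0.02, with single genes from -0.31 to 0.27. Of its genes, 1 lay higher and 1 lower without overlap between the genotypes, a state that 9.25% of all genes showed. Hair shaft and inner root sheath genes, by contrast, separated the same controls as the muscle genes. Their mean was 7.54, 7.34, 7.14 and 7.60 in K320E, against 8.54, 7.58, 7.84 and 9.09 in controls. The arrays highest in this list, control replicates 4 and 1, were the lowest for muscle, and the array lowest in it, K320E replicate 3, was the highest for muscle. All 13 hair genes had fold changes below 0, with a median of -0.79, Tchh at -1.32 and Krt25 at -1.16. In limma's fit 0 passed, and 9 had an unadjusted p under 0.05, all lower in K320E, where 6.06% of all genes were. The part of these differences in the muscle and collagen values was not tested.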

How the data were processed

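Per the labels, total RNA came from a Maxwell extraction, NuGEN Applause chemistry amplified it and biotin was the label. The log2 intensities of 33793 probe sets were used as deposited by the authors; not given in the sources used here are background correction, summarisation and normalisation. Names came from GEO's annotation of the platform with symbols updated by gene ID: 23521 name 1 gene, 1814 several and 8458 none. Genotypes were compared over 22180 genes with limma 3.58.1 in R 4.3.3 (genotype as the only term, Benjamini-Hochberg adjustment over all genes, threshold 0.05), after the fit was tested on simulated data. Fold changes are K320E minus control. Precision is limited by having 4 arrays per genotype. Lists are described by counts and medians, with no test of a list. The members and lists were chosen with earlier results of these data known. All members are named; of each further list, the called genes or, where none was called, the 2 with the highest mean are named, and Sox18 stands in 2 lists. No array duplicated another: correlations ran from 0.976 to 0.994. Alternatives were array weights, averaging the probe sets of a gene, quantile normalisation, centring on array medians, dropping the lowest 33.3% of genes, a robust prior with an intensity trend, a replicate block, a Y-linked covariate, an unadjusted p, leaving out each array in turn and leaving out control replicates 2 and 3; leaving out K320E replicate 3 as well was added after the data were seen.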

Additional observations from a re-analysis of the deposited data

Results flagged for a closer look

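Each member and each group mean, by genotype, made 78 groups of 4 arrays. Chance alone flags about 5% of such groups. They share arrays and the group means hold the members, so flags are not independent and that share is only a guide. Of the 78 groups, 7 held an array far from the other 3. In 5 of these the distant array was K320E replicate 3, which was high for the adipocyte genes Adipoq (7.75, the next K320E array 5.51), Lpl (9.77, next 7.08) and Cd36 (9.34, next 7.24), for the endothelial cadherin gene Cdh5 (7.40, next 6.30) and for the mean of the adipocyte genes (8.53, next 6.94). That array also differed from the other K320E arrays in its Y-linked mean (8.64) and in Xist (6.84). The 2 others were small differences on different arrays: Postn was high in K320E replicate 4 (11.50, next 11.29) and Tie1 in K320E replicate 1 (5.68, next 5.61).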

How the results depend on the processing

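None of the 35 members passed an adjusted p of 0.05 in any of the 18 alternative fits (lowest adjusted p 0.102). By an unadjusted p, 2 muscle, 1 adipocyte, 1 fibroblast and 1 endothelial genes passed, and 3288 of all genes. Leaving out each array in turn gave 53 to 173 called genes over all genes, against 195; medians of 0.25 to 0.55 for muscle, 0.05 to 0.67 for adipocyte, 0.00066 to 0.16 for fibroblast and -0.03 to 0.12 for endothelial genes; and genotype differences of 0.34 to 0.66 for muscle minus fibroblast, 0.18 to 0.65 for adipocyte minus fibroblast, -0.04 to 0.08 for endothelial minus fibroblast and -0.29 to 0.16 for muscle minus adipocyte means. The lowest median of each of the 4 groups was that without K320E replicate 3; the cause was not tested. Without K320E replicate 3 and control replicates 2 and 3, 9 genes were called over all genes, endothelial minus fibroblast was -0.13 (0.03 with all arrays), muscle minus adipocyte 0.44 (-0.03 with all arrays) and adipocyte minus fibroblast 0.11 (0.52 with all arrays); fewer samples enter this fit. Without control replicates 2 and 3 alone, 185 genes were called over all genes, and the medians were 0.61 for muscle, 0.57 for adipocyte, 0.26 for fibroblast and 0.12 for endothelial genes. With the replicate number as a block, 114 genes were called over all genes and 0 members. Same-numbered arrays had deviations that correlated at -0.06 to 0.14, so the numbers were not taken to pair the samples. Normalisation, probe set choice, the intensity filter, variance model, array weights and the Y-linked covariate kept every group median on the same side of 0. Tpm2 lost its call with array weights (adjusted p = 0.0542) and the replicate block (0.0703), and Thy1 with quantile normalisation (0.0572), median centring (0.0538), array weights (0.0589), the Y-linked covariate (0.0676) and without the 3 arrays (0.0524).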
